A study of Mus musculus with 16 samples.

Results

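The genes described here are 37 genes of the oligodendrocyte lineage and of myelin, measured in the hippocampus of *Mef2c*-het and wild-type (WT) mice. They were chosen by name, as known genes of the lineage and with earlier results of these data in view, and each gene was read from the probe with the highest mean signal over all arrays. Of the 37 genes, 34 had a probe on the Illumina MouseRef-8 v2 array, which carries 25697 probes for 17567 named genes. There was no probe for *Sox10*, *Nkx6-2* or *Erbb3*, and *Ermn* and *Aspa* were not detected on any array, so that 32 genes could be tested. The arrays were probed with hippocampal RNA of 4 mice in each of 4 groups, WT and *Mef2c*-het at postnatal day 1 (P1) and at postnatal day 30 (P30). *Mef2c*-het mice carried 1 copy of a conventional allele lacking exon 2 of *Mef2c* on the C57BL/6J background. The deletion was present in every cell type, not in oligodendrocytes alone, and the labels gave no sex, litter or chip for any mouse. The labels name this genotype KO, although the mice were heterozygous. The 2 ages were different mice, so the comparison of ages was between animals.

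Oligodendrocytes form the myelin sheaths of the central nervous system. They arise from dividing precursor cells that carry PDGF receptor alpha and the NG2 proteoglycan, pass through a short committed stage marked by GPR17, ENPP6 and BCAS1, and then switch on the genes for myelin proteins and lipids together. In the rodent forebrain this happens after birth, while the transcription factors of the lineage are already made in precursors and stay on in the mature cells. MEF2C is a transcription factor best known in neurons, muscle and microglia.

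Each log2 signal below is the deposited intensity after log2 transformation and quantile normalization, and a probe was called detected on an array where the scanner's detection p was under 0.05. Between 12638 and 14150 probes were detected per array, with a median of 36 to 39 beads per probe. Within each age the arrays fell into 2 clusters by their correlation over all probes. At P1 the smaller cluster held WT replicate 8 and *Mef2c*-het replicate 8, and at P30 it held WT replicates 6 and 7 and *Mef2c*-het replicate 7, so that both clusters held both genotypes. *Mef2c* itself read 9.56, 9.75, 9.75 and 9.57 in WT and 9.16, 9.71, 8.93 and 9.87 in *Mef2c*-het at P30, a log2 difference of -0.24 (SE 0.19, limma adjusted p = 0.976). At P1 the difference was -0.01 (SE 0.12), and a second *Mef2c* probe differed by -0.29 at P30 and 0.07 at P1. Where its probes lie relative to exon 2 was not known, so these probes check nothing, and the genotypes rest on the labels. All 7 genes of a hippocampal marker list were detected on at least 1 array, and 5 of them on all 8 P30 arrays. Of 6 thalamic genes 4 were detected as well, and so were the 4 striatal genes with a probe. These lists therefore do not check the dissection. The Schwann cell genes *Prx*, *Pmp2* and *Ncmap* were not detected on any array. These are whole-tissue samples, in which fewer cells of a type and less RNA per cell cannot be told apart.

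The first question was how the lineage genes differed between the newborn and the juvenile hippocampus. In WT mice, 29 of the 32 genes tested were higher at P30, 1 was lower and 2 did not pass the threshold (limma, adjusted p under 0.05). The background was high, since 28.0% of all 14777 probes tested were called higher at P30 and 31.7% lower. The median log2 difference of the members, P30 minus P1, was 2.74, against -0.03 over all probes tested. In *Mef2c*-het mice 27 members were higher, 1 was lower and 4 did not pass, with a median of 2.52 against -0.02 over all probes, and 26.9% of all probes called higher and 31.4% lower. A gene that passed the detection filter only through the P30 arrays had to differ, so the 21 members detected on all 8 P1 arrays are given on their own as a description. Of these, 19 were higher in WT at P30, 1 was lower and 1 did not pass, with a median of 2.42. By role, the WT medians of these 21 members were 0.75 for 3 transcription factors, 0.33 for the 2 precursor genes, 3.66 for 2 committed-stage genes, 3.66 for 9 genes of the myelin membrane and structure and 1.90 for 5 enzymes and carriers. In *Mef2c*-het the same medians were 0.67, 0.07, 3.39, 3.47 and 1.92. The differences between roles were not tested.

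**Figure D1:**
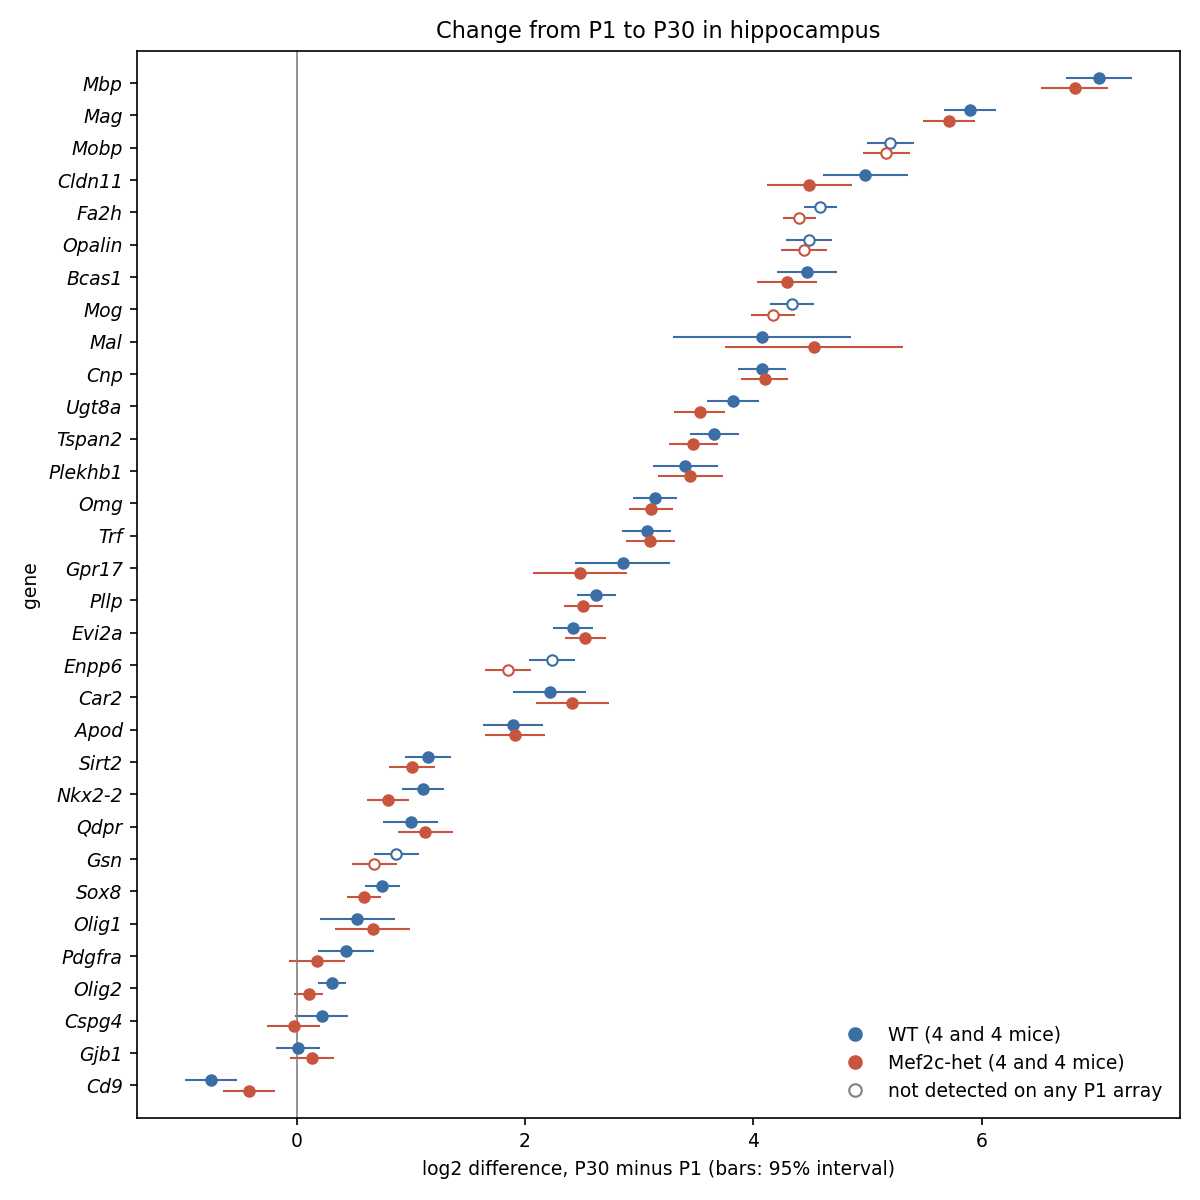
Log2 difference between P30 and P1 (horizontal axis) for each of the 32 members tested, ordered by the difference in WT, in WT (blue) and in *Mef2c*-het (red), with open circles for genes not detected on any P1 array and bars for the 95% interval of limma, not adjusted for the number of genes. The differences reach from -0.75 for *Cd9* to 7.03 for *Mbp* in WT, while the intervals of *Cspg4* and *Gjb1* include 0 in both genotypes.

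Of the lineage transcription factors, *Olig1* and *Olig2* encode paired basic helix-loop-helix factors, of which *Olig2* specifies the lineage and *Olig1* acts in maturation. In WT mice the log2 signal of *Olig1* was 12.83, 12.81, 12.85 and 12.49 at P1 and 13.54, 13.40, 12.98 and 13.18 at P30. The WT groups did not overlap, and the difference of 0.53 (SE 0.15, adjusted p = 0.00729) amounted to 1.45-fold. With arrays scaled to a common median instead of quantile normalization the same difference had an adjusted p of 0.0946. In *Mef2c*-het mice *Olig1* read 12.93, 12.61, 12.81 and 12.28 at P1 and 13.36, 13.47, 13.51 and 12.95 at P30, a difference of 0.67 (SE 0.15, adjusted p = 0.00142).

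*Olig2* was dim. Its probe was detected on none of the 4 WT arrays and on 3 of the 4 *Mef2c*-het arrays at P1, and on all 8 arrays at P30. In WT it read 7.13, 7.14, 7.17 and 7.18 at P1 and 7.34, 7.53, 7.51 and 7.50 at P30, which is a rise of at least 1.11-fold. The bound here, as for every gene not detected in a group, sets the mean P30 signal against the lowest signal among detected probes on each P1 array, or the probe's own signal where that was higher. In *Mef2c*-het the values of 7.41, 7.32, 7.25 and 7.36 at P1 overlapped those of 7.38, 7.45, 7.38 and 7.56 at P30 (log2 difference 0.11, SE 0.06, adjusted p = 0.138). The difference between ages passed the threshold in WT alone (0.31, SE 0.06, adjusted p = 0.000240), and the difference between the genotypes in this respect did not pass after adjustment (adjusted p = 0.998).

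*Sox8* encodes an SRY-box factor that works beside *Sox10* in the lineage, and *Nkx2-2* a homeodomain factor that acts at the onset of differentiation. *Sox8* read 8.31, 8.21, 8.43 and 8.57 in WT at P1 and 9.07, 9.21, 9.16 and 9.10 at P30, without overlap (log2 difference 0.75, SE 0.07, adjusted p = 1.23e-07). In *Mef2c*-het it read 8.37, 8.34, 8.27 and 8.42 at P1 and 8.89, 8.93, 9.03 and 8.91 at P30 (0.59, SE 0.07, adjusted p = 2.24e-06). *Nkx2-2* showed the largest difference of the transcription factors. It read 7.42, 7.31, 7.50 and 7.53 in WT at P1 and 8.58, 8.42, 8.73 and 8.47 at P30 (1.11, SE 0.09, adjusted p = 1.24e-08). In *Mef2c*-het it read 7.64, 7.46, 7.48 and 7.81 at P1 and 8.42, 8.46, 8.27 and 8.44 at P30 (0.80, SE 0.09, adjusted p = 6.41e-07). In both genotypes each P30 array lay above each P1 array for both genes. A second *Nkx2-2* probe was not detected on any array.

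The precursor genes had the smallest median difference between the ages of any role. *Pdgfra*, the receptor through which PDGF drives precursor division, read 10.17, 9.94, 10.08 and 10.12 in WT at P1 and 10.67, 10.39, 10.56 and 10.44 at P30. The WT groups were apart by a mean log2 difference of 0.44 (SE 0.12, adjusted p = 0.00395), or 1.35-fold. With scaling to a common median the difference was 0.35 and the adjusted p 0.0996. In *Mef2c*-het *Pdgfra* read 10.50, 9.85, 10.25 and 10.44 at P1 and 10.56, 10.39, 10.47 and 10.31 at P30, and the ages overlapped (0.18, SE 0.12, adjusted p = 0.213). *Cspg4*, which encodes the NG2 proteoglycan of precursors and pericytes, read 7.85, 7.66, 7.58 and 7.84 in WT at P1 and 7.78, 7.94, 8.03 and 8.05 at P30. These values overlapped, and the difference of 0.22 (95% interval -0.01 to 0.45, adjusted p = 0.0964) did not pass. When *Mef2c*-het replicate 8 of P1 was left out of the fit, the WT difference stayed at 0.22 and its adjusted p was 0.0426. In *Mef2c*-het *Cspg4* read 7.71, 7.63, 7.66 and 8.11 at P1 and 7.78, 7.71, 7.57 and 7.95 at P30, again overlapping (-0.03, SE 0.11, adjusted p = 0.861).

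The committed-stage genes were all higher at P30 in both genotypes, without overlap between the ages. *Gpr17*, an orphan receptor made for a short time before myelination and shut off in mature cells, read 8.50, 8.02, 8.53 and 9.05 in WT at P1 and 11.46, 11.39, 11.02 and 11.66 at P30. The difference was 2.86 on the log2 scale (SE 0.19, adjusted p = 2.20e-09), or 7.24-fold. In *Mef2c*-het *Gpr17* read 8.67, 8.26, 8.57 and 9.11 at P1 and 11.26, 11.15, 11.05 and 11.08 at P30 (2.48, SE 0.19, adjusted p = 1.30e-08). *Bcas1*, a protein of newly forming and early myelinating oligodendrocytes, was already detected at P1. It read 9.20, 9.05, 8.90 and 9.43 in WT at P1 and 13.55, 13.59, 13.68 and 13.64 at P30 (4.47, SE 0.12, adjusted p = 4.46e-14). The *Mef2c*-het signals were 9.40, 8.84, 9.16 and 9.41 at P1 and 13.62, 13.35, 13.40 and 13.62 at P30 (4.30, SE 0.12, adjusted p = 8.57e-14).

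*Enpp6*, a choline-specific phosphodiesterase that marks newly differentiated cells, was not detected on any P1 array. Its WT signals of 6.96, 6.95, 6.98 and 7.17 at P1 were at background, and those at P30 were 9.24, 9.08, 9.12 and 9.56. The rise was at least 3.83-fold in WT. In *Mef2c*-het the background signals were 7.04, 6.94, 7.10 and 7.05 at P1 and the P30 signals 8.88, 8.91, 8.71 and 9.01, a rise of at least 2.96-fold.

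**Figure D2:**
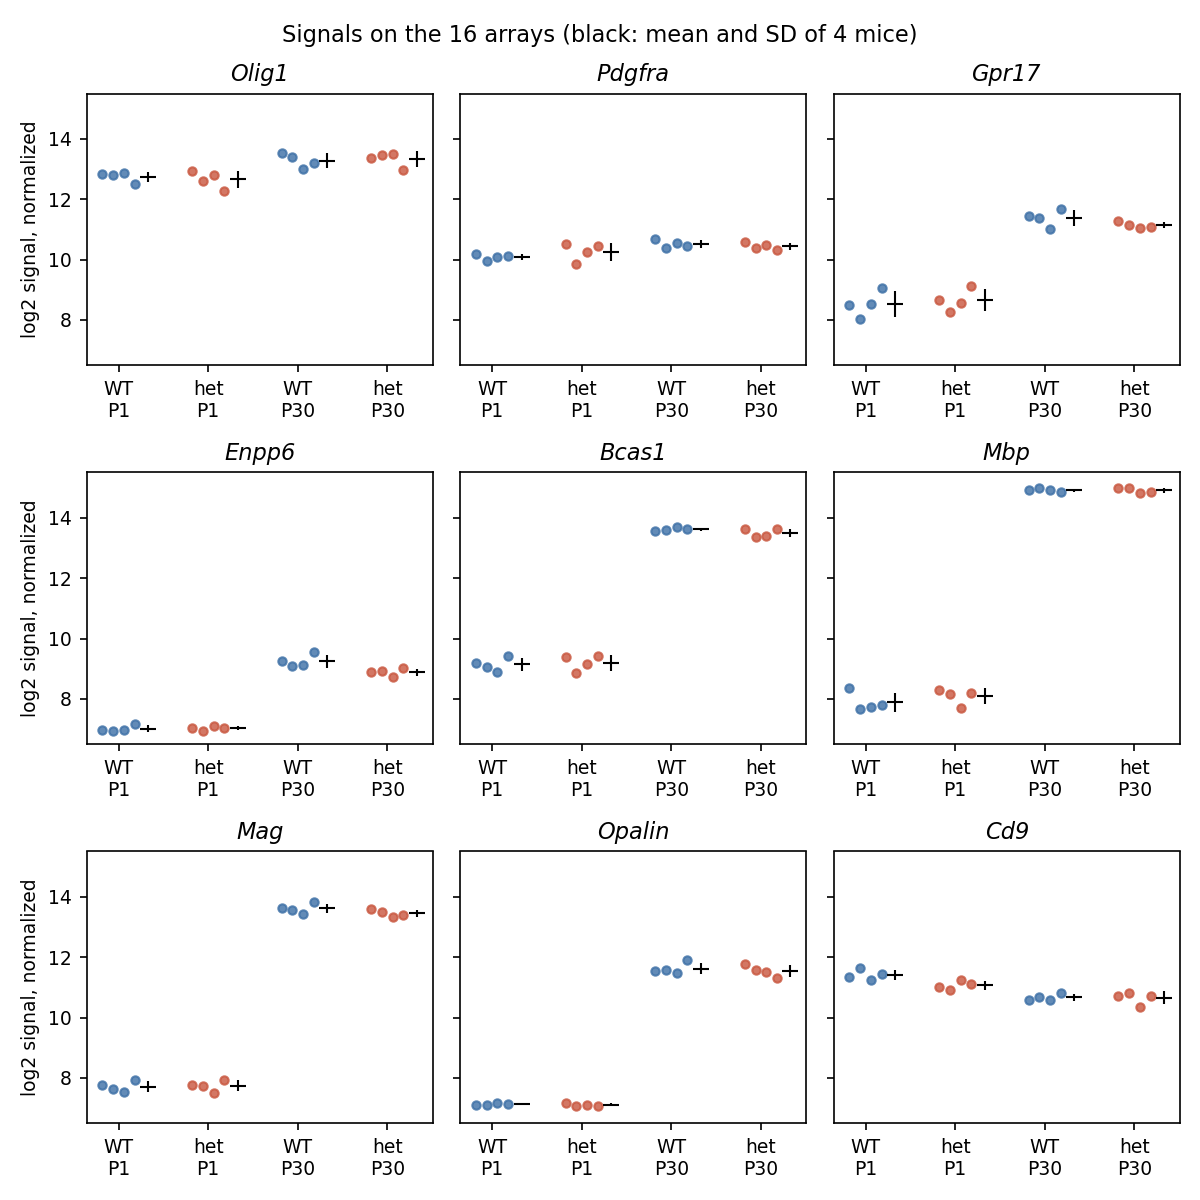
Log2 signal (vertical axis, quantile-normalized over all 16 arrays) of *Olig1*, *Pdgfra*, *Gpr17*, *Enpp6*, *Bcas1*, *Mbp*, *Mag*, *Opalin* and *Cd9*, with a point per mouse (WT blue, *Mef2c*-het red) and the mean and SD of each group of 4 in black. The committed-stage and myelin genes separate the ages in both genotypes, *Pdgfra* overlaps between them in *Mef2c*-het, and *Cd9* is lower at P30.

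The genes of the myelin membrane and structure held the largest differences between ages on the array. *Mbp* encodes myelin basic protein, which compacts the cytoplasmic faces of the sheath, and its difference ranked 1 of 14777 probes in WT. It read 8.35, 7.65, 7.74 and 7.79 in WT at P1 and 14.91, 14.97, 14.92 and 14.85 at P30 (log2 difference 7.03, SE 0.14, adjusted p = 7.73e-16). In *Mef2c*-het it read 8.31, 8.16, 7.70 and 8.20 at P1 and 14.97, 14.97, 14.83 and 14.85 at P30 (6.81, SE 0.14, adjusted p = 1.15e-15). The fold difference was 131 in WT and 113 in *Mef2c*-het. At P30 this probe was among the 10 brightest of every array, where quantile normalization gives probes of the same rank the same value, so small differences among P30 arrays cannot be resolved for it. A second *Mbp* probe, detected on 2 of 4 WT arrays and on no *Mef2c*-het array at P1, was at least 32.6-fold higher at P30 in *Mef2c*-het. The third, detected on all 16 arrays, was higher by 1.58 in WT and 1.47 in *Mef2c*-het.

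*Mag*, the adhesion molecule of the inner wrap that faces the axon, read 7.75, 7.62, 7.53 and 7.94 in WT at P1 and 13.63, 13.57, 13.43 and 13.82 at P30 (5.90, SE 0.11, adjusted p = 3.59e-16). The *Mef2c*-het arrays gave 7.76, 7.74, 7.51 and 7.94 at P1 and 13.58, 13.51, 13.33 and 13.40 at P30 (5.72, SE 0.11, adjusted p = 5.38e-16). Within each age the genotypes overlapped for *Mag*. *Cldn11*, the claudin of the tight junctions between myelin wraps, was brighter at birth. Its WT signals were 9.79, 9.84, 9.45 and 10.03 at P1 and 14.77, 14.72, 14.72 and 14.83 at P30 (4.98, SE 0.18, adjusted p = 7.81e-13). In *Mef2c*-het they were 10.72, 9.54, 10.14 and 10.35 at P1, the widest spread of any member group at P1, and 14.72, 14.72, 14.68 and 14.61 at P30 (4.49, SE 0.18, adjusted p = 2.71e-12).

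Several late genes went from background to a bright signal. *Mobp*, which encodes a basic protein of compact myelin, was detected on no P1 array and on all 8 P30 arrays. It read 7.25, 7.05, 7.11 and 6.98 in WT at P1 and 12.42, 12.23, 12.01 and 12.52 at P30, at least 31.6-fold higher. On the *Mef2c*-het arrays the values were 7.17, 6.997, 6.994 and 7.05 at P1 and 12.29, 12.22, 12.06 and 12.30 at P30, at least 29.9-fold higher. *Mog*, a glycoprotein of the outermost lamella, and *Opalin*, a membrane glycoprotein of mature oligodendrocytes, followed the same course. *Mog* was at least 17.1-fold higher at P30 in WT and at least 15.7-fold in *Mef2c*-het, and *Opalin* at least 19.8-fold and 18.9-fold. All 3 entered the fits through their P30 arrays alone.

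The other myelin genes were detected at P1 on some or all arrays. *Cnp*, the cyclic nucleotide phosphodiesterase that keeps cytoplasmic channels open in the sheath, was higher by 4.07 in WT and 4.10 in *Mef2c*-het (SE 0.10 in both). *Tspan2*, a tetraspanin, was higher by 3.66 and 3.47, *Plekhb1* by 3.40 and 3.45, and *Omg*, a myelin glycoprotein also made by neurons, by 3.14 and 3.11. *Evi2a* was higher by 2.42 and 2.53. *Pllp*, or plasmolipin, was detected on 1 of 4 WT and 2 of 4 *Mef2c*-het arrays at P1, and its differences of 2.62 and 2.51 are against P1 signals near background. *Mal*, a proteolipid of myelin and of epithelial membranes, was detected on 1 of 4 P1 arrays in each genotype, and its differences of 4.08 in WT (SE 0.37) and 4.53 in *Mef2c*-het are likewise against P1 signals near background. The standard error of *Mal* was the largest of all members. At P30 its brighter probe read 12.04, 11.81, 10.49 and 10.80 in WT and 11.93, 12.30, 12.20 and 10.37 in *Mef2c*-het, where the 3 low arrays are the 3 of the smaller cluster. The second *Mal* probe read 11.53, 11.25, 11.19 and 11.48 in WT and 11.28, 11.35, 10.84 and 11.33 in *Mef2c*-het, with no such split. It was not detected at P1 and was at least 16.5-fold higher at P30 in WT and 14.8-fold in *Mef2c*-het.

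**Figure D3:**
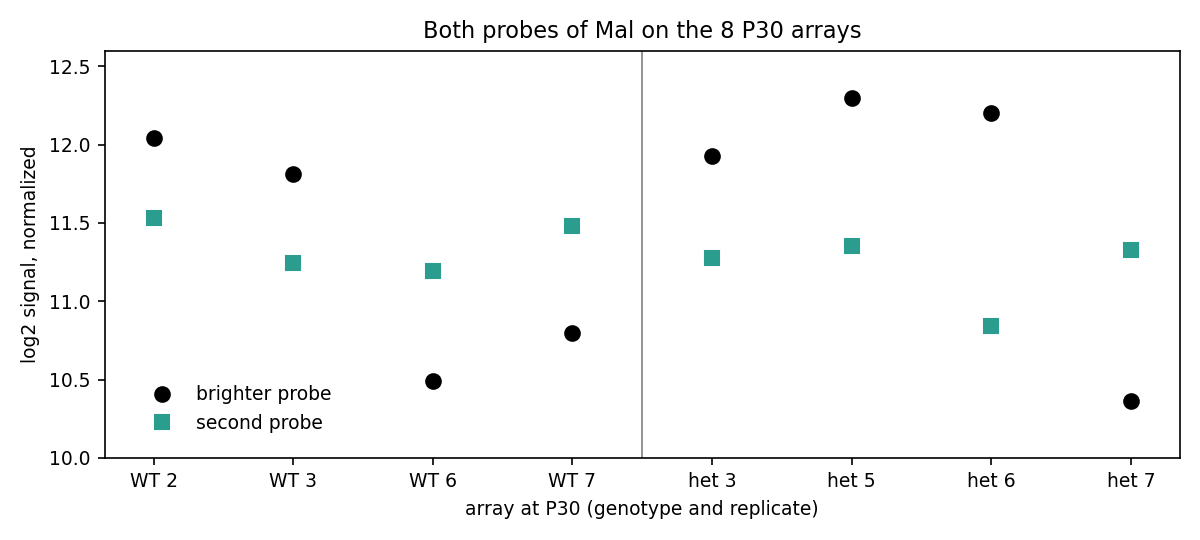
Log2 signal of the 2 *Mal* probes (vertical axis) on each of the 8 P30 arrays (horizontal axis, genotype and replicate), as black circles for the brighter probe and green squares for the second. The brighter probe falls between 10.37 and 10.80 on the 3 arrays of the smaller cluster (WT 6, WT 7 and het 7) and between 11.81 and 12.30 on the other 5, while the second probe stays between 10.84 and 11.53 on all 8.

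*Gjb1* and *Cd9* did not share the rise. *Gjb1*, which encodes the gap junction protein connexin 32, read 7.30, 7.33, 7.41 and 7.31 in WT at P1 and 7.12, 7.22, 7.42 and 7.63 at P30. The ages overlapped in WT (0.01, SE 0.09, adjusted p = 0.923), and in *Mef2c*-het the values were 7.23, 7.27, 7.38 and 7.47 at P1 and 7.58, 7.42, 7.49 and 7.41 at P30 (0.13, SE 0.09, adjusted p = 0.227). The probe was near background, detected on 2 of 4 arrays in 3 of the 4 groups and on all 4 in *Mef2c*-het at P30. Within the larger array clusters alone the *Mef2c*-het difference was 0.22 and passed the threshold (adjusted p = 0.0257). *Cd9*, a tetraspanin found on myelin and on many other cells, was the 1 member that fell. It read 11.33, 11.63, 11.26 and 11.44 in WT at P1 and 10.58, 10.69, 10.59 and 10.80 at P30, without overlap (-0.75, SE 0.11, adjusted p = 1.37e-05). The *Mef2c*-het values of *Cd9* were 11.01, 10.91, 11.25 and 11.11 at P1 and 10.71, 10.83, 10.34 and 10.72 at P30 (-0.42, SE 0.11, adjusted p = 0.00297).

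The promoters of 4 of these myelin genes are shown as examples of ACAAAG, a short core that SOX factors bind, among genes that rose, and the 4 were picked for holding it. Each sequence is 300 bases from RefSeq (GRCm38.p6), 250 before to 50 after the gene's start, 5′ to 3′ on the gene's strand, with the core in capitals (CTTTGT is the core on the other strand). They lie at chr9:120149492-120149791 (*Mobp*, plus strand), chr7:30914873-30915172 (*Mag*, minus strand), chr11:100574689-100574988 (*Cnp*, plus strand) and chr19:41077064-41077363 (*Opalin*, minus strand).
Mobp: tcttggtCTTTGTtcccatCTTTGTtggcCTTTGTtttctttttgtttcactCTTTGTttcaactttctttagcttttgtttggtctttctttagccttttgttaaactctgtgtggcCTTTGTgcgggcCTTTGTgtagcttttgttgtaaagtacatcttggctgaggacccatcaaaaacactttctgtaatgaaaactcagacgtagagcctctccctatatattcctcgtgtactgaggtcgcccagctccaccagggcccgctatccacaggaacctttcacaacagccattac
Mag: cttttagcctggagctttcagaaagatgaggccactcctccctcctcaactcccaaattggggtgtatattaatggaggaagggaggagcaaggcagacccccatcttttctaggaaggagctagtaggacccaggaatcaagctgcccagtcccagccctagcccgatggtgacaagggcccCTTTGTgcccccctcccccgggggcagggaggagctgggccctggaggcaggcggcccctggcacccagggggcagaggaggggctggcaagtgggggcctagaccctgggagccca
Cnp: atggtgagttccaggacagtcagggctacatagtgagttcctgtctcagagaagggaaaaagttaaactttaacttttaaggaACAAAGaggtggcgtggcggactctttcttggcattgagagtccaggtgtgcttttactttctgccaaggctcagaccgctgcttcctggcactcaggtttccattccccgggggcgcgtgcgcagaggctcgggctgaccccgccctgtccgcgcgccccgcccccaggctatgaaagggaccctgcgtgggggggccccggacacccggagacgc
Opalin: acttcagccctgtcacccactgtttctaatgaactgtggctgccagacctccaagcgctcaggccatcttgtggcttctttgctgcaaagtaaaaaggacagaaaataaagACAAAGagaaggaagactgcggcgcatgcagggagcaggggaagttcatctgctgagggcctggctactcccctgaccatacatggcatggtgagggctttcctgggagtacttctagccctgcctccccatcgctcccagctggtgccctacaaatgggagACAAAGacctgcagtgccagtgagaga
The *Mobp* window held 6 cores, all on the other strand, between 114 and 243 bases before the start, and was the single one of 32851 promoters with 6 or more, a number chosen after its count was seen. *Opalin* held 2 cores and *Mag* and *Cnp* 1 each. *Mog*, *Cldn11*, *Ugt8a* and *Pllp*, which also rose, had none in their windows, while *Gjb1*, which did not, had 1 in each of 2 of its 4 promoters. Of the 37 members 26 had an entry in the promoter table. The core was in the promoters of 8 of these 26 members, or 30.8%, against 21.0% of 27025 genes, and in 18.7% of all 32851 promoters of this length. A MEF2 site was found on either strand of 3.19% of all promoters, and of the members' promoters in those of *Mal* and *Aspa*. These matches describe letters in a window, and no binding was measured.

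The enzymes and carriers of the list were all higher at P30 in both genotypes. *Fa2h*, the hydroxylase that makes the 2-hydroxy fatty acids of myelin lipids, was not detected at P1. It read 7.06, 7.08, 7.12 and 7.08 in WT at P1 and 11.79, 11.73, 11.46 and 11.71 at P30, at least 20.5-fold higher. In *Mef2c*-het it read 7.14, 7.16, 7.11 and 7.22 at P1 and 11.59, 11.65, 11.44 and 11.55 at P30, at least 19.0-fold higher. *Ugt8a*, which makes galactosylceramide and was detected on 3 of 4 WT and all 4 *Mef2c*-het P1 arrays, was higher by 3.82 in WT and 3.53 in *Mef2c*-het. *Trf*, the iron carrier transferrin, was higher by 3.06 and 3.10, *Car2*, a carbonic anhydrase, by 2.22 and 2.41, and *Apod*, a lipid carrier, by 1.90 and 1.92. *Sirt2*, a tubulin deacetylase, was higher by 1.15 and 1.01 and *Qdpr*, which regenerates tetrahydrobiopterin, by 1.00 and 1.13. *Gsn*, the actin-severing gelsolin, was not detected at P1 and was higher by at least 1.55-fold in WT and 1.39-fold in *Mef2c*-het. No age group of these 8 genes overlapped the other in either genotype.

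Because the deposited signals carry background, the log2 differences of dim genes understate the change. After a normexp background correction the direction and call of the members called above were kept, but 9 of the 30 differences called in WT moved by more than 1.5 times, *Mal* from 4.08 to 6.28, *Opalin* from 4.49 to 6.85 and *Enpp6* from 2.24 to 4.39. The others were *Fa2h*, *Gsn*, *Mog*, *Nkx2-2*, *Olig2* and *Pllp*. With the mean over all probes of a gene, *Mbp* was the 1 member of the 30 that moved by as much, since its dimmer probes differed less.

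Other genes of the lineage, a second list of 67 genes of which 57 had a probe, moved less uniformly. In WT 30 of the 48 tested were higher at P30, 7 were lower and 11 did not pass, with a median log2 difference of 0.40. Of all 14777 probes tested, 28.0% were called higher in WT and 31.7% lower, with a median of -0.03. In *Mef2c*-het 28 of the 48 were higher, 7 lower and 13 did not pass (median 0.32). There 26.9% of all probes were called higher and 31.4% lower (median -0.02). Differences of the counts by role from these shares were not tested. Of the list's genes for the myelin membrane and the node, 12 of 13 were higher in WT and none lower. Of its enzymes and lipid genes 11 were higher and 1 lower of 13, of its receptors and signals 6 were higher and 2 lower of 12, and of its transcription factors 1 was higher and 4 were lower of 10. Among the larger differences were those of *Gal3st1*, which makes sulfatide, at 2.59, *Lims2* at 2.28, and *Tmem125* at 2.05 (at least 3.53-fold). The smallest were *Myt1*, a zinc finger factor of precursors, at -1.15, *Hes5*, a Notch target that holds progenitors back, at -1.12, and *Notch1* at -1.03.

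Marker lists of other cells also held genes called between the ages, where 28.0% of all probes were called higher in WT and 31.7% lower. In WT 8 of 9 astrocyte genes were called higher at P30, and the list's mean log2 signal was 9.71 to 9.94 on the P1 arrays and 11.16 to 11.23 on the P30 arrays. All 5 neuronal genes tested were called higher, with list means of 9.14 to 9.34 and 10.37 to 10.49, while *Snap25*, *Gad2* and *Nefl* were not detected on any array. Of 8 microglial genes 6 were called higher, with list means of 8.35 to 8.62 and 8.96 to 9.13. Other lists were split or mostly without a call. In WT 2 of 5 endothelial genes tested were called higher and 2 lower. Of 6 choroid plexus genes 1 was higher and 1 lower, as it was of 5 fibroblast and meningeal genes. Of 5 pericyte and mural genes 1 was higher and 0 were lower. The choroid plexus list varied most among mice, with means of 8.38 to 10.33 at P1 and 7.72 to 9.19 at P30. The part of the cell mixture in the members' differences between ages was not tested.

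The second question was whether these genes differed between *Mef2c*-het and WT mice. At P30, when the sheaths are being laid down, none of the 32 members passed limma's adjusted threshold, with 0.00746% of all 13413 probes tested called. At an unadjusted p under 0.05, 2 members stood out, *Enpp6* and *Sox8*, both lower in *Mef2c*-het, where 2.36% of all probes had such a p. The 4 *Mef2c*-het arrays lay apart from the 4 WT arrays for the same 2 members, as they did for 1.75% of all probes. The median log2 difference of the members, *Mef2c*-het minus WT, was -0.09 against -0.01 over all probes. The difference was below 0 for 24 of the 32 members, or 75%, and for 55.1% of all probes.

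*Enpp6* at P30, on the scale of the 8 arrays of that age, read 9.20, 9.04, 9.08 and 9.51 in WT and 8.84, 8.88, 8.68 and 8.97 in *Mef2c*-het. Each *Mef2c*-het array lay below each WT array, which is the smallest two-sided p that an exact permutation test of 4 against 4 can give (0.0286). The mean difference was -0.36 (SE 0.11, 95% interval -0.61 to -0.12), or 1.29-fold lower, with a limma p of 0.00806 and an adjusted p of 0.976. Within the larger array cluster it was -0.32 and with the cluster as a block also -0.32. *Sox8* read 9.03, 9.16, 9.12 and 9.05 in WT and 8.85, 8.90, 8.99 and 8.87 in *Mef2c*-het, also apart (exact permutation p = 0.0286). Its difference was -0.19 (SE 0.06, 95% interval -0.32 to -0.05), or 1.14-fold lower, with a limma p of 0.0126 and an adjusted p of 0.976. Within the larger cluster *Sox8* differed by -0.18 (limma p of 0.0612), and its unadjusted p also rose over 0.05 with common-median scaling (-0.15) and cyclic loess (-0.16). Neither gene passed the adjustment over all probes.

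The other committed-stage and precursor genes overlapped between the genotypes at P30. *Gpr17* read 11.45, 11.37, 10.99 and 11.65 in WT and 11.24, 11.13, 11.03 and 11.06 in *Mef2c*-het (-0.25, SE 0.13, 95% interval -0.53 to 0.03). *Bcas1* differed by -0.12 (95% interval -0.30 to 0.06), *Pdgfra* by -0.08 (-0.27 to 0.10) and *Cspg4* by -0.19 (-0.40 to 0.01). The remaining transcription factors differed by 0.05 (*Olig1*, -0.28 to 0.37), -0.02 (*Olig2*, -0.17 to 0.13) and -0.15 (*Nkx2-2*, -0.34 to 0.03). All of these intervals included 0, and each gives the range of differences that remain compatible with these arrays. Of the 15 myelin genes 12 were below 0, with a median of -0.08, where 55.1% of all probes were below 0. *Mbp* differed by -0.01 (95% interval -0.14 to 0.13) by its brightest probe, for which small differences among P30 arrays cannot be resolved. By its dimmer probes *Mbp* differed by -0.18 (-0.45 to 0.09) and -0.05 (-0.23 to 0.12), with overlapping groups. *Mag* differed by -0.16 (-0.38 to 0.05), *Cldn11* by -0.10 (-0.24 to 0.04) and *Mobp* by -0.08 (-0.34 to 0.18). *Cldn11* was among the 24 brightest probes of every P30 array, where probes of the same rank take the same value. WT replicates 3 and 6 and *Mef2c*-het replicates 3 and 5 all read 14.63, so small differences of *Cldn11* are only coarsely resolved. *Mal* differed by 0.42 by its brighter probe (SE 0.48) and by -0.17 by its second. A second *Cnp* probe differed by -0.30 (adjusted p = 0.976) with overlapping groups, where the brighter probe differed by -0.12. Of the 8 enzymes and carriers 4 were below 0, the lowest of them *Ugt8a* at -0.27 (95% interval -0.54 to 0.01).

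**Figure D4:**
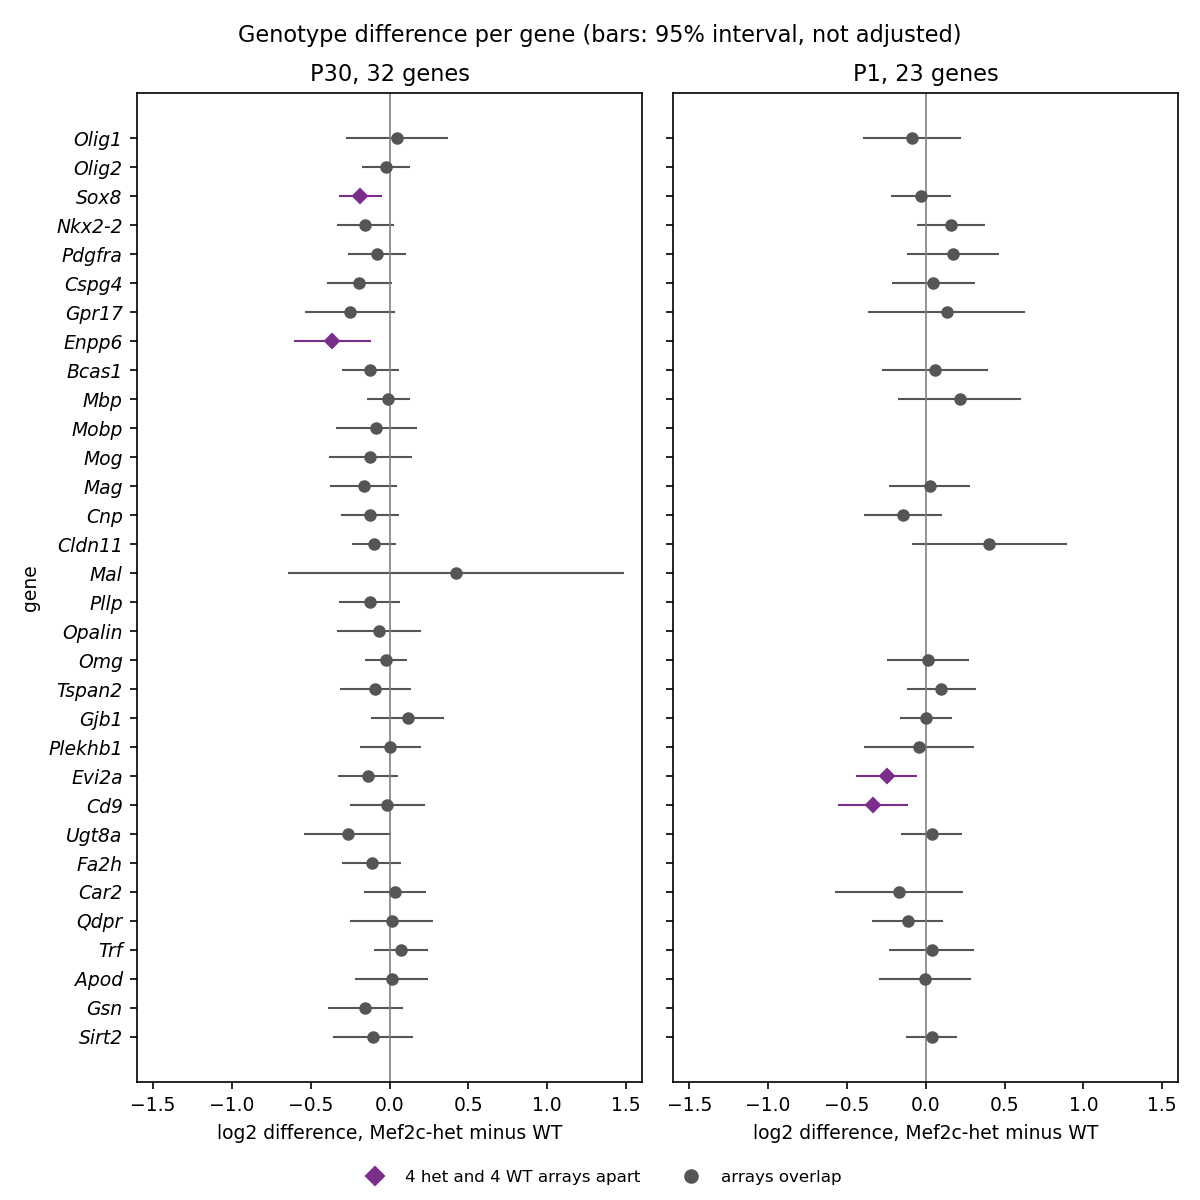
Log2 difference between *Mef2c*-het and WT (horizontal axis) at P30 (left, 32 genes) and at P1 (right, 23 genes), with bars for the 95% interval, not adjusted for the number of genes. Diamonds mark genes whose 4 *Mef2c*-het arrays lie apart from the 4 WT arrays, *Sox8* and *Enpp6* at P30 and *Evi2a* and *Cd9* at P1.

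Summed up by mouse, the members did not separate the genotypes at P30. The mean deviation of the 32 members from their average over the 8 arrays was 0.07, 0.02, -0.06 and 0.12 on the WT arrays and 0.04, -0.01, -0.09 and -0.10 on the *Mef2c*-het arrays. The groups overlapped, and WT replicate 6 lay lower than 2 of the *Mef2c*-het arrays. The 3 committed-stage genes alone deviated by 0.12, 0.06, -0.02 and 0.33 on the WT arrays and by -0.04, -0.16, -0.24 and -0.06 on the *Mef2c*-het arrays, with 1 of the 3 genes, *Enpp6*, already apart on its own. The count of members with an unadjusted p under 0.05 was 2 with all arrays and moved with single arrays. It was 6 without WT replicate 6, where 1.55% of all probes had such a p, 4 without WT replicate 3 (2.61%) and 4 without *Mef2c*-het replicate 7 (10.3%). Blocking on array cluster gave 6 (*Enpp6*, *Gpr17*, *Sirt2*, *Sox8*, *Tspan2* and *Ugt8a*), against 4.26% of all probes, and with cyclic loess it was 1 (2.8%). In none of these fits did a member pass the adjusted threshold.

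**Figure D5:**
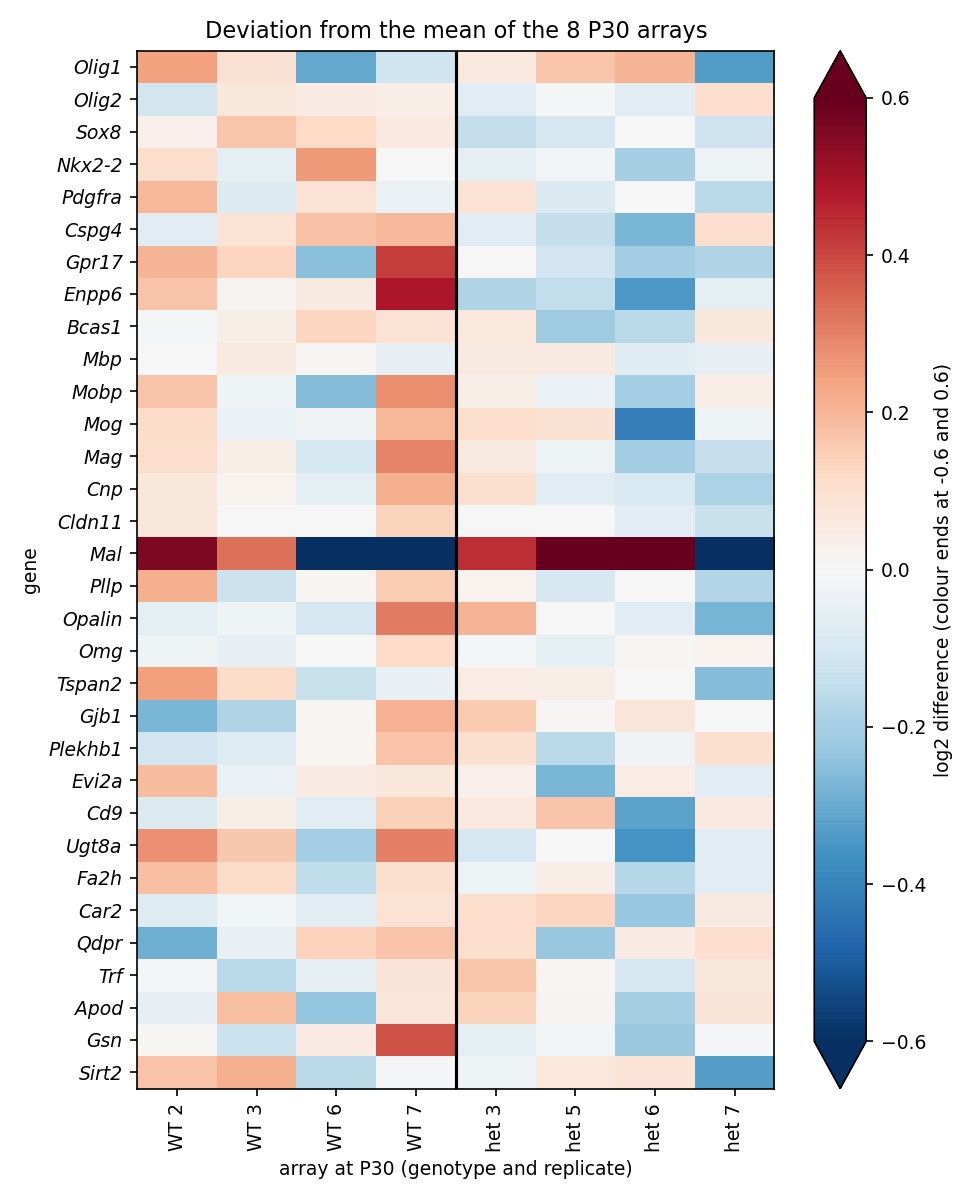
Heat map of the deviation of each P30 array (columns, genotype and replicate) from the mean of the 8 arrays, for the 32 members (rows), with red above and blue below the mean on the log2 scale and the colours ending at -0.6 and 0.6. *Enpp6* is above the mean on all 4 WT arrays and below it on all 4 *Mef2c*-het arrays, *Mal* splits by array cluster in both genotypes, and most other genes mix signs within a genotype.

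At P1, 23 members were tested and none passed the adjusted threshold, as was the case for 0.0% of all 13566 probes. At an unadjusted p under 0.05 there were 2, *Cd9* and *Evi2a*, against 1.62% of all probes, and the same 2 members had groups apart, against 1.29%. The median log2 difference was 0.02 against 0.00 over all probes, with 14 members above 0 and 9 below, where 49.3% of all probes were below 0. *Cd9* read 11.35, 11.64, 11.28 and 11.45 in WT and 11.03, 10.94, 11.27 and 11.13 in *Mef2c*-het, apart by a narrow margin (exact permutation p = 0.0286). Its difference was -0.33 (SE 0.10, 95% interval -0.56 to -0.11), with a limma p of 0.00730 and an adjusted p of 1.00. *Evi2a*, a membrane protein gene nested in an intron of *Nf1*, read 8.05, 8.32, 8.14 and 8.30 in WT and 8.05, 7.80, 8.03 and 7.94 in *Mef2c*-het. The highest *Mef2c*-het array lay below the lowest WT array by less than the rounding shown (exact permutation p = 0.0286). The difference was -0.25 (SE 0.09, 95% interval -0.44 to -0.06), with a limma p of 0.0165 and an adjusted p of 1.00.

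Among the committed-stage and myelin genes detected at P1, *Gpr17* differed by 0.13 (95% interval -0.37 to 0.63), *Bcas1* by 0.06 (-0.28 to 0.39) and *Mbp* by 0.22 (-0.17 to 0.61). *Cldn11* differed by 0.40 (-0.09 to 0.89), with WT at 9.85, 9.90, 9.50 and 10.08 and *Mef2c*-het at 10.76, 9.59, 10.19 and 10.39, which overlapped. *Pdgfra* differed by 0.17 (-0.12 to 0.47), *Cspg4* by 0.05 (-0.21 to 0.31), *Olig1* by -0.09 (-0.40 to 0.22), *Sox8* by -0.03 (-0.22 to 0.16) and *Nkx2-2* by 0.16 (-0.05 to 0.37). *Olig2* was not tested at P1, since 3 arrays detected it. Its signals were 7.12, 7.14, 7.16 and 7.17 in WT and 7.42, 7.32, 7.25 and 7.36 in *Mef2c*-het, apart with *Mef2c*-het higher (exact permutation p = 0.0286). Without the detection filter the *Olig2* difference was 0.19 (SE 0.05) with a limma p of 0.00251 and an adjusted p of 1.00. All 4 WT signals were below detection, so this is a difference against background.

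Whether the genotype difference itself changed between P1 and P30 was tested in 1 fit of all 16 arrays. None of the 32 members passed (adjusted p of 0.998 or more for each), as for 0.0% of all 14777 probes. At an unadjusted p under 0.05 there were 4 members, against 2.96% of all probes, with *Enpp6* the lowest at a limma p of 0.0109. Taken as P30 minus P1, the genotype difference changed by -0.39 for *Enpp6* (SE 0.13), by -0.31 for *Nkx2-2* (SE 0.12), by -0.20 for *Olig2* (SE 0.08) and by 0.33 for *Cd9* (SE 0.15). *Enpp6* was at background at P1 in both genotypes and *Olig2* in WT, so the change of *Enpp6* rests on the P30 arrays and that of *Olig2* partly on background. *Nkx2-2* was detected on all P1 arrays, but its WT signals there, 7.31 to 7.53, were dim. The lowest detected signals on those WT arrays were 7.29 to 7.36. After normexp the changes were -0.67 for *Nkx2-2* and -0.65 for *Olig2*, both of which rest on these dim P1 signals. The count of 4 was 2 with common-median scaling (1.52% of all probes) and 7 without WT replicate 8 of P1 (5.03%). It was 2 without WT replicate 3 (3.16%), *Mef2c*-het replicate 3 (2.23%) or *Mef2c*-het replicate 6 (1.92%) of P30. Likewise it was 2 without WT replicate 4 (1.96%), *Mef2c*-het replicate 1 (2.99%) or *Mef2c*-het replicate 8 (2.17%) of P1. Over 26 alternatives *Enpp6* kept an unadjusted p under 0.05 in 26, *Olig2* in 21, *Nkx2-2* in 20 and *Cd9* in 11. The median over the members was -0.15 against -0.01 over all probes. Of the 32 members 21 were below 0, or 65.6%, against 52.8% of all probes. This comparison shares its arrays with each of the others, so its values repeat the differences given above.

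The second list of lineage genes was likewise without a call by genotype. At P30 none of 44 tested passed limma's adjusted threshold, with a median of -0.06 against -0.01 over all probes. Of the 44, 2 had an unadjusted p under 0.05, where 2.36% of all probes had one. These were *Gal3st1* at -0.24 and *Fgfr2*, a receptor on oligodendrocytes and astrocytes, at -0.17. At P1 none of 39 passed and none had an unadjusted p under 0.05, against 1.62% of all probes (median -0.02 against 0.00). No gene of the astrocyte, neuron, microglia, endothelium or choroid plexus lists was called by genotype at either age. At P30 the mean log2 signal of the neuronal list was 10.37 to 10.49 in WT and 10.41 to 10.50 in *Mef2c*-het, and that of the microglial list 8.96 to 9.13 and 9.03 to 9.29. Over all probes tested, 55.1% were below 0 at P30 and 49.3% at P1. Of the 8 microglial genes 7 were above 0 at P30, where *C1qa* and *C1qb* (both 0.26) had an unadjusted p under 0.05, and 7 were below 0 at P1, where *Tyrobp* (-0.35) had one. All 5 endothelial genes tested were below 0 at P30 and all 4 above 0 at P1, and the choroid plexus genes were below 0 for all 3 at P30 and all 5 at P1. The part of these cells in the members' differences was not tested.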

How the data were processed

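Hippocampal RNA of 16 mice was hybridised to Illumina MouseRef-8 v2 arrays as biotin-labelled cRNA, 1 array per mouse. The deposited table holds, per probe and array, the mean bead intensity before normalization, its bead standard error, the bead number and a detection p-value, per the file headers. The authors named lumi and limma without versions, and log2 and quantile normalization in their methods, which describe P30 only and state no background correction. The labels gave no chip, so a chip effect cannot be told apart from others, and the number of arrays limits the precision.

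The intensities were log2-transformed and quantile-normalized, over the 8 arrays of an age for genotype and over all 16 for age and for the difference between ages. A probe entered a fit if 4 or more of its arrays detected it (scanner p under 0.05), and was tested with limma 3.58.1 in R 4.3.3, with Benjamini-Hochberg adjustment over all probes tested. Single genes were also set against an exact two-sided permutation test of the arrays. Tests treat the mice of a group as replicates. Fits were tested on simulated data with independent noise and no array clusters, where 50 probes each were changed by 0.25, 0.5, 1 and -1. There a log2 genotype difference of 0.5 was called for 72% of changed probes at P30 and 56% at P1. One of 0.25 was called for 4% and 8%. Planted changes of this number ease the adjustment over all probes, so these shares may overstate what the real arrays could call.

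The members and the second list were chosen with earlier results of these data known. Some genes of the other lists are not reported here. Full values were set for genes apart by genotype, the transcription factors, the precursor and committed-stage genes, and the 5 largest and 5 smallest age differences in WT. Older names stood for 6 members (*Cnp1*, *Tmem10*, *Ugt8*, *Tm4sf11*, *6330415F13Rik* and *A330104H05Rik*), and 322 probes had no name. Alternatives were normexp (offset 16), other scaling, other filters, trended variances, replicate and array cluster as blocks, other probe rules and leaving out each array.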

Additional observations from a re-analysis of the deposited data

Results flagged for a closer look

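For each of 106 groups of 4 arrays (a member within a genotype and age), the gap between the outermost array and its neighbour was set against the range of the group. In 8 groups the gap was large enough to mark 1 array as lying apart, where chance alone gives about 1 in 20, or 5.3. *Trf* had the largest share of its range in the gap, 0.957, with WT replicate 5 at P1 reading 8.90 and the next array 9.25. The share was 0.905 for *Sirt2* in *Mef2c*-het replicate 8 at P1 (9.89, next 10.09) and 0.881 for *Olig1* in WT replicate 8 at P1 (12.49, next 12.81). *Tspan2* had 0.871 in *Mef2c*-het replicate 7 at P30 (11.48, next 11.74), and *Cspg4* had 0.842 in *Mef2c*-het replicate 8 at P1 (8.11, next 7.71). For *Qdpr* it was 0.841 in *Mef2c*-het replicate 5 at P30 (11.29, next 11.56), for *Olig2* 0.839 in WT replicate 2 at P30 (7.34, next 7.50) and for *Cnp* 0.833 in *Mef2c*-het replicate 2 at P1 (8.05, next 8.23). Of these 8 arrays, those of *Sirt2*, *Olig1*, *Tspan2* and *Cspg4* belonged to the smaller array cluster of their age.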

How the results depend on the processing

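The number of members called between ages was 28 to 30 in WT (30 in the text) and 27 to 29 in *Mef2c*-het (28 in the text) over the settings tried, and 30 to 31 and 28 with each array left out in turn. The counts by genotype stayed at 0 of the members at P30, at P1 and for the difference between ages in every setting, and the median genotype difference ranged from -0.10 to -0.05 at P30 and from 0.02 to 0.04 at P1 (-0.12 to -0.06 and -0.02 to 0.07 with an array left out). *Enpp6* at P30 and *Cd9* at P1 kept an unadjusted p under 0.05 in 19 of 19 alternatives, *Sox8* in 15 and *Evi2a* in 16, and none passed the adjustment. *Evi2a* lost it in the larger cluster alone (-0.22) and without WT replicate 4 or *Mef2c*-het replicate 2. The differences near 0 changed sign. *Gjb1* in WT was -0.01446 with common-median scaling, -0.01642 with cyclic loess, -0.01902 with the array cluster as a block and -0.188 in the larger cluster. With each array left out it ran from -0.08374 (without WT_P30 replicate 7) to 0.08695. It was below 0 also without WT_P30 replicate 6 (-0.01319) and WT_P1 replicate 1 (-0.002124). *Cspg4* in *Mef2c*-het was 0.001395 with cyclic loess, 0.01835 in the larger cluster, and ran from -0.09294 to 0.08531 with each array left out, above 0 without Het_P30 replicate 6 (0.03384) and Het_P1 replicate 8 (0.08531). *Gjb1* in *Mef2c*-het rose past the threshold in the larger cluster (0.22, adjusted p = 0.0257). The cause was not tested.

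The paper calls the WT mice of its array comparison littermates, but the labels give no litter or chip. Whether the replicate numbers pair the mice is therefore not known, and fits without a block leave out any shared litter. The deviations of equally numbered arrays correlated by 0.09, 0.40 and 0.83 at P1 and by 0.19, -0.53 and 0.71 at P30. The values of 0.83 and 0.71 belong to arrays within the smaller cluster. There the unequally numbered WT replicate 6 and *Mef2c*-het replicate 7 of P30 correlated by 0.73. These correlations cannot tell pairing from array cluster. With the replicate number as a block, *Gjb1* between ages was -0.08047 in WT and -0.05963 in *Mef2c*-het, *Pdgfra* in WT 0.73 (0.44 in the text), *Olig2* in WT 0.27 (adjusted p = 0.0562) and *Cd9* in *Mef2c*-het -0.26 (0.0977). *Sox8* at P30 (-0.20) no longer had an unadjusted p under 0.05. At P1 the block gave 8 members with an unadjusted p under 0.05, where the text has 2. Over all probes tested the share with such a p was 7%, where the text has 1.62%. After adjustment still no member passed, while 3 probes of the whole array did. Dim genes near background limit what can be seen at P1.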
